A study of Mus musculus with 9 samples.

Results

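Isolated CpG-sparse tiles are 1 kb stretches of the autosomes in which reduced representation bisulfite sequencing (RRBS) reached only 1 to 4 CpG rows and which lay far from any CpG-dense tile. RRBS reads DNA methylation base by base next to the sites of the restriction enzyme MspI. A row is 1 CpG cytosine on 1 strand that was covered by at least 10 reads. A tile was included if the WT table held 1 to 4 rows in it and no tile of 20 or more rows, called a dense tile below, lay within 10 tiles on either side. This gave 114436 tiles, 52.8% of the 216670 autosomal tiles with a row, and 223491 tiles had a row on all chromosomes together. These tiles held 261545 rows, 15.4% of the autosomal total. The rule used the number of rows and never a methylation level.

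The J1 line of mouse embryonic stem cells, which are pluripotent, was used at passages 7 to 10, and the constructs were expressed in cells described as Dnmt TKO, a knockout of DNA methyltransferase genes. WWD and R are groups of 2 samples each with a mutant Dnmt3a2 construct so labelled. C is a group of 2 samples for which the labels record no construct. WT is a group of 2 samples with wild-type Dnmt3a2, and TKO is 1 sample without a construct. The labels name 1 table for both samples of a group, which was taken as their pool, so no spread between replicates can be given and every test compares the reads of 2 pools and not conditions. How much construct the cells contained, and whether a group is 1 clone, is not given in the sources used here.

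Dnmt3a2 is the shorter isoform of Dnmt3a, an enzyme that places methyl groups on CpGs that carried none. Its ADD domain binds the tail of histone H3 when lysine 4 is unmethylated, and the mutants of the series were made in a domain of the enzyme that reads histones, as its title says. In most mammalian tissues the CpG-poor bulk of the genome is heavily methylated, while CpG islands, which are dense in CpGs and often carry H3 lysine 4 methylation, stay unmethylated. The tiles described here are sparse in covered CpG rows, and dense tiles stand in for CpG islands by their row count only, since no island annotation was used.

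The sparse coverage recurred in the other pools. Of the 114436 tiles, 90.5% had 1 to 4 rows in the WWD table as well, 93.8% in R, 91.8% in C and 80.3% in TKO, and 0 had 20 or more rows in any of these. TKO had no row in 22416 of the tiles. By construction 32529 tiles had 1 row, 36954 had 2, 24704 had 3 and 20249 had 4. The median tile lay 73 tiles from the nearest dense tile, the middle 50% lay between 31 and 193 tiles away, and the furthest was 6092 tiles away. How many CpGs the genome holds in each tile was not determined, because a sequence of the build used by the authors, mm9, was not used here, and for the same reason no gene is named.

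Depth divided the tiles into positions that can be compared and positions that cannot be compared as safely. In the whole series the pools held 133814232 to 210550841 read calls, with median coverages of 66 to 104 reads. In the sparse tiles 187615 positions had at least 10 reads in all 5 pools. Of these, 138415 (73.8%) also had at least 0.5 times as many reads in TKO as in WT, and all values below refer to them unless stated otherwise. They lay in 75556 tiles, so 38880 tiles gave no comparable position. Median coverage at the compared positions was 136 reads in WWD, 157 in R, 117 in C, 132 in WT and 134 in TKO.

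The 49200 positions below the depth ratio had other methylation levels, which bears on every mean given here. They averaged 31.3% in WWD, 49.2% in R, 1.03% in C, 43.7% in WT and 2.53% in TKO, with median coverages of 36, 121, 53, 124 and 16 reads in the same order. The change was gradual in WWD. In the class with the lowest TKO to WT read ratio, WWD averaged 39.9% and WT 49.4%, and where it was 0.5 to 0.75, WWD averaged 7.73% and WT 33.2%. Just inside the limit, at ratios of 0.5 to 0.6, WWD had 8.33% and WT 33.2%, and just outside it, at 0.4 to 0.5, WWD had 10.98% and WT 34.99%. The part of depth in these levels was not tested.

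**Figure D1:**
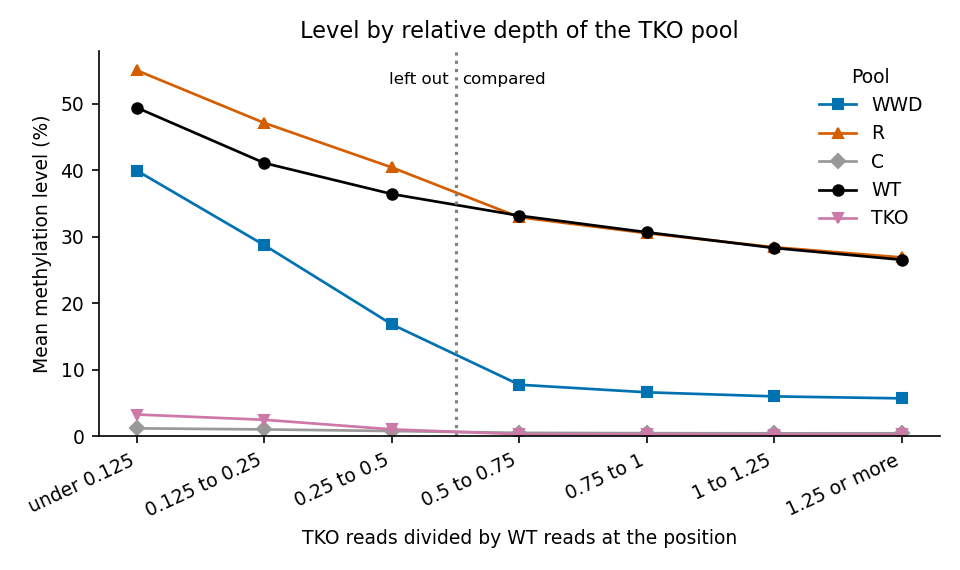
Mean methylation level (%) of positions in the isolated sparse tiles, in classes of TKO reads divided by WT reads, with 1 point per pool and class. Right of the dotted line, at ratios of 0.5 or more, the WWD points lie between 5.68% and 7.73%, and left of it they climb to 39.9% while the WT points climb to 49.4%.

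The other limits of the rule made little difference to the levels. Isolated tiles of 4 rows averaged 7.12% in WWD and 30.1% in WT, and isolated tiles of 5 rows, just outside, averaged 7.68% in WWD and 30.9% in WT. Tiles with the nearest dense tile 11 tiles away had 31.4% in WT, and those with it 10 tiles away had 31.2%.

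Methylation in the sparse tiles was partial in WT and R, low in WWD and close to 0 in C and TKO. The mean level was 6.37% ± 9.07 in WWD, 29.5% ± 20.8 in R, 0.433% ± 1.12 in C, 29.5% ± 20.5 in WT and 0.251% ± 0.786 in TKO (SD over 138415 positions, which covers differences between sites and counting error and no replicate error). Counting error alone put the means within ±0.0119 points in WWD, ±0.0204 in R, ±0.00383 in C, ±0.0236 in WT and ±0.00307 in TKO at a 95% level, if reads are independent molecules. PCR copies could not be recognised here, so these limits are the narrowest possible.

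Single positions ranged over most of the scale. In WWD 25.6% of positions were at 0, the median was 2.96% and the 95th percentile 25.5%. In R the median was 26.3%, with the 5th percentile at 1.20% and the 95th at 67.9%. In WT the median was 26.8%, with the same percentiles at 1.11% and 66.7%. Above 50% lay 599 positions in WWD, 25698 in R, 1 in C, 25248 in WT and 0 in TKO. Above 80% lay 2 positions in WWD, 1181 in R, 0 in C, 893 in WT and 0 in TKO. So few of the compared positions lay above 80% in any pool, and R and WT had nearly the same distribution over them. The 49200 positions left out by the depth ratio averaged more, at 49.2% in R, 43.7% in WT and 31.3% in WWD, and are not covered by these counts.

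**Figure D2:**
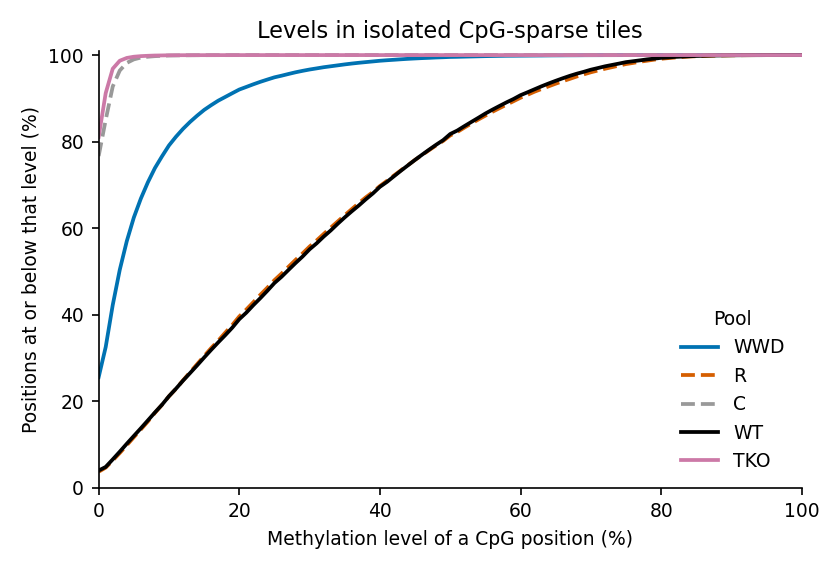
Percent of the 138415 compared positions (y axis) at or below a given methylation level (x axis, %), with 1 line per pool. The lines of R and WT overlie each other with medians of 26.3% and 26.8%, the WWD line has its median at 2.96%, and the C and TKO lines start at 76.7% and 81.1% of positions with a level of 0.

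Wild-type Dnmt3a2 was set against TKO to see how much methylation the enzyme placed in sparse DNA from an unmethylated start. WT averaged 29.2 points more than TKO, and WT was higher in 2204 of 2204 blocks of 1 Mb with at least 20 compared positions. At 71072 of 138415 positions (51.3%) WT was higher by at least 25 points at an adjusted p under 0.01 by a two-sided Fisher's exact test on reads, Benjamini-Hochberg adjusted over all 1288864 nuclear positions tested, and at 0 positions it was lower. Over all positions tested, 22.5% were called higher and 0.064% lower, and over autosomal positions that met the same coverage and depth limits 22.4% were called higher. Before adjustment, 9 of the 138415 positions were lower in WT at p under 0.05.

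Tiles were named by a fixed rule among 14523 sparse tiles with at least 3 compared positions, all with 30 or more reads in every pool, and since their values chose them they are examples only. Coordinates are those of mm9. The largest difference between WT and TKO was at chr19:38416001-38417000, 54 tiles from the nearest dense tile. Its 3 positions averaged 85.4% in WT, with a range of 77.5% to 90.5%, and 0% in TKO over 469 read calls, which allows up to 0.640%. The same tile averaged 54.7% in WWD, 82.6% in R and 0.930% in C. Adjusted p of its positions for WT against TKO lay between 2.92e-70 and 6.41e-53 by Fisher's exact test.

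The next 4 were at chr6:137752001-137753000, chr5:123631001-123632000, and chr14:75323001-75324000 and chr14:70301001-70302000. WT averaged 79.9% to 81.5% in them and TKO 0% to 0.667%. At the other end, 5 tiles were unmethylated in WT although they were sparse and isolated. The first, at chr5:20480001-20481000, had 0% in WT over 139 read calls, which allows up to 2.16%, and 1.33% in TKO. In the remaining ones, at chr15:79801001-79802000, at chr10:60275001-60276000 and chr10:29032001-29033000, and at chr5:125483001-125484000, WT averaged 0% to 0.240%. The mean level was at most 1.04% in WWD and at most 2.65% in R in these 5 tiles. None of the positions in these 5 tiles was called.

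The WWD construct was compared with wild-type Dnmt3a2 to see how the mutation of the histone-recognition domain bears on the same sparse DNA. WWD averaged 23.1 points less than WT (6.37% against 29.5%), beyond counting error of ±0.0264 points. Levels were lower in WWD at 94.7% of positions. WWD was called lower at 59279 positions (42.8%) and higher at 2, where over all 1511200 positions tested 13.4% were called lower and 0.461% higher, and over autosomal positions within the same limits 17.7% were called lower and 0.000676% higher (Fisher's exact test, Benjamini-Hochberg adjusted over all positions tested). Without the depth ratio the mean difference was -20.3 points.

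The WWD pool was not at the TKO level. It averaged 6.12 points more than TKO and was higher in 2204 of 2204 blocks. At 6708 positions (4.85%) WWD was called higher and at 1 lower by the same test, against 5.21% higher and 0.0011% lower over all 1273389 positions tested, and 2.71% higher and 0.000225% lower over autosomal positions within the same limits. Relative to the gain of WT over TKO, the gain of WWD was 20.9%. Without the depth ratio it was 37.2%, so the size of the remainder depends on that limit.

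By 1 Mb block the share held nearly everywhere. Over 2204 blocks WWD averaged 5.82% ± 2.06 and WT 27.2% ± 7.63 (SD over blocks), and WWD lay below WT in all 2204 blocks and below 50% of WT in 2203. The WWD share of the WT gain was 20.5% ± 4.43, with a lowest block of 3.996%, a middle 50% of 17.7% to 23.05% and a highest block of 46.4%. The highest, at chr1:27000001-28000000, held 26 compared positions at 3.89% in WWD and 7.66% in WT. The lowest, at chr3:125000001-126000000, held 21 positions at 0.938% in WWD and 10.7% in WT. Both lie near the minimum of 20 positions. The part of counting and site differences in these shares was not tested.

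Other blocks with a high share were at chr3:48000001-49000000 (42.1%) and chr6:76000001-77000000 (39.6%). Low shares of 5.79% and 5.85% were at chr3:118000001-119000000 and chr1:49000001-50000000. Over whole autosomes the share varied little, with the lowest value of 20.1% on chromosome 7 and the highest of 21.9% on chromosome 19. Across blocks the levels of WWD and WT had a Pearson correlation of 0.858 (2204 blocks, which share positions and MspI sites but not reads).

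**Figure D3:**
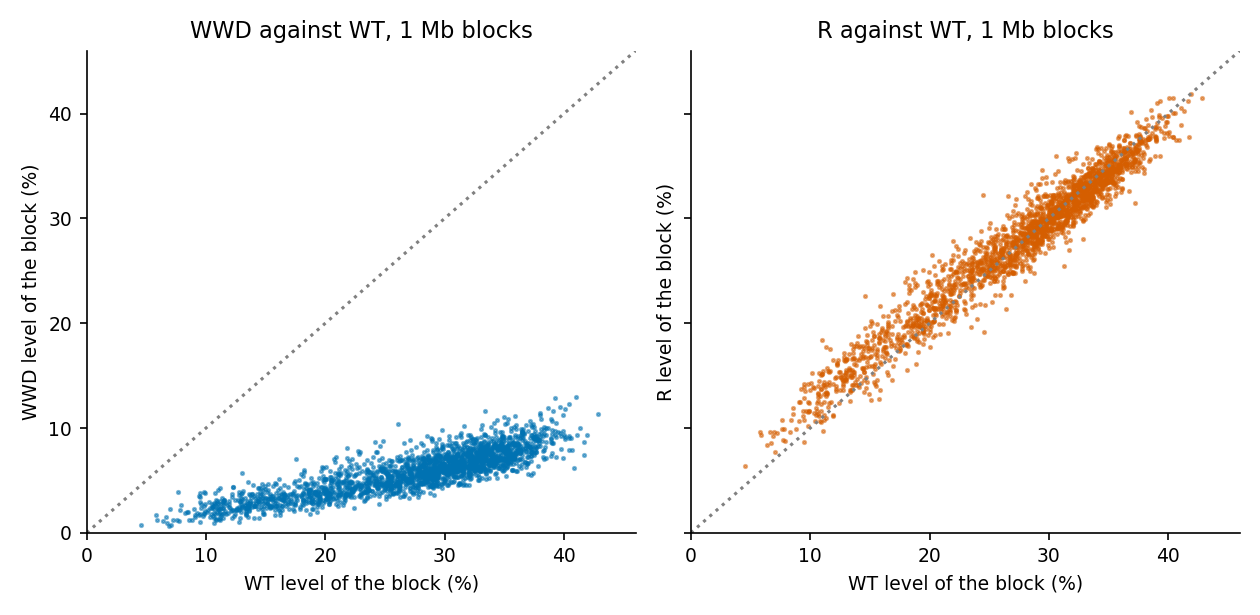
Mean level (%) of compared positions in each of 2204 blocks of 1 Mb, for WWD (left) and R (right) on the y axis against WT on the x axis, with the line of equality dotted. Every WWD point lies below the line. R points lie on both sides of it, 1210 above and 994 below.

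WWD kept more of the methylation at positions that were highly methylated in R. R is on neither side of the comparison of WWD with WT and could therefore rank positions. Where R had over 5 to 20%, WWD averaged 1.76% and WT 14.3%, a share of 10.7% of the gain. Where R had over 40 to 60%, WWD averaged 10.4% and WT 47.5%, a share of 21.5%. Above 80% in R, WWD averaged 38.7% and WT 74.8% over 1181 positions, a share of 51.6%. Thus the share was about level up to 20% in R, with 12.6% at positions at 0 in R, and increased above it.

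The place of a position along the sequenced stretch moved with the WWD level and hardly with that of WT. Covered positions less than 500 bp apart were joined to runs, and a forward row that opens a run or a reverse row that closes it is called outermost. RRBS reads start at cut MspI sites, but whether these rows are the CpG of such a site was not checked against a sequence. Of the compared positions 87859 (63.5%) were outermost. They averaged 5.38% in WWD, 29.1% in R, 0.511% in C, 29.2% in WT and 0.342% in TKO. The 50556 positions inside runs averaged 8.08% in WWD, 30.2% in R, 0.296% in C, 30.02% in WT and 0.0941% in TKO. The WWD share of the gain was 17.5% at outermost positions and 26.7% inside.

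Neighbours on the same strand were also compared. In 32318 pairs of an outermost CpG and the next one inside it, at most 50 bp away, WWD averaged 5.86% at the outermost and 8.54% at the inner CpG, whereas WT averaged 30.2% and 30.5%. The outermost CpG was the lower one in 50.5% of pairs in WWD, with 9.27% equal, and in 49.8% in WT, with fewer equal. It was therefore the higher one in a smaller share of pairs in WWD than in WT, and the mean also shifted more in WWD. C had 0.511% at the outermost and 0.263% at the inner CpG, and TKO 0.340% and 0.0527%, so the low levels of these pools went the other way. At each level of R the share was lower for outermost than for inside positions, with 9.61% and 13.1% where R had over 5 to 20%, and 46.4% and 57.3% where it had over 80%. The part of place in the read in the WWD difference was not tested.

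**Figure D4:**
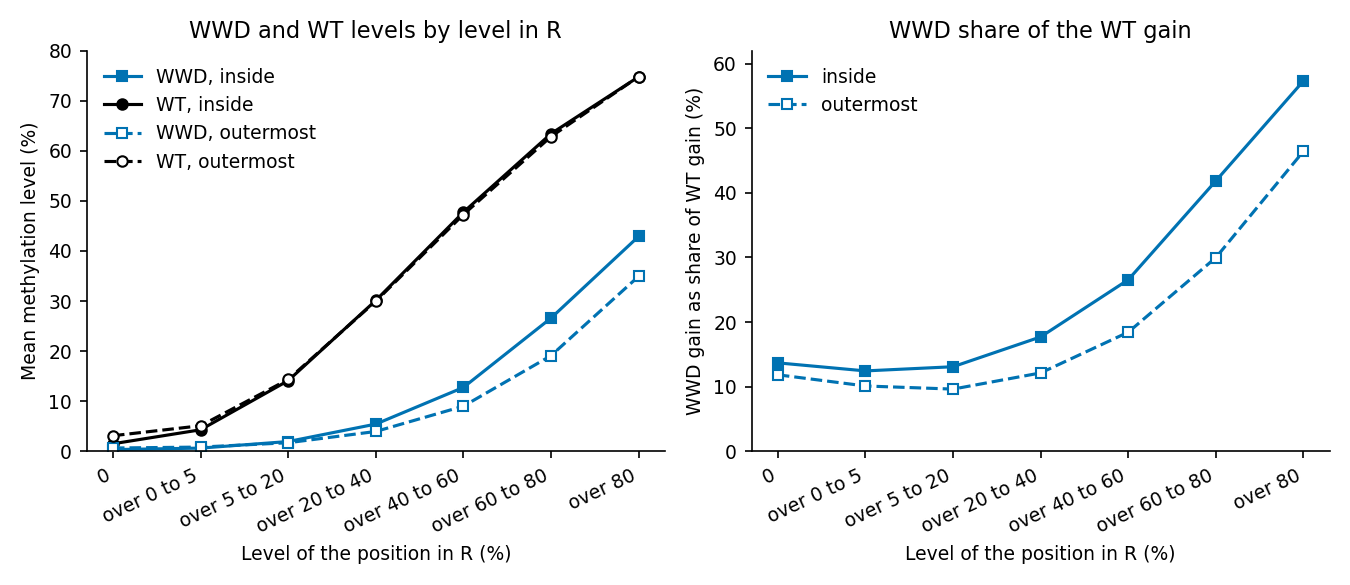
Left, mean level (%) in WWD and WT of compared positions, and right, the gain of WWD over TKO as a percent of the gain of WT over TKO, both by the level in R (x axis, %), for positions inside runs (filled, solid) and outermost positions (open, dashed). The share climbs from 13.1% to 57.3% inside and from 9.61% to 46.4% at outermost positions, between levels in R of over 5 to 20% and over 80%.

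The tiles with the largest falls in WWD had high levels in WT, which falls of that size require, and also in R. At chr7:149818001-149819000 the 3 positions held 2.38% to 8.70% in WWD and 67.2% to 72.7% in WT, with averages of 6.01% and 69.6%, while R averaged 66.3%. All 3 were called lower in WWD, with adjusted p between 1.31e-25 and 2.63e-11 (Fisher's exact test). Similar tiles were at chr12:5328001-5329000, chr11:45923001-45924000, chr15:38257001-38258000 and chr7:149625001-149626000. WWD averaged 3.81% to 13.4% there and WT 63.7% to 75.7%, and every position was called.

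Among the 14523 tiles, the 5 with the highest difference of WWD minus WT held little in both, and none of their positions was called. The largest, at chr16:32130001-32131000, had 8.07% in WWD and 2.93% in WT. The rest were at chr4:62322001-62323000, chr6:113588001-113589000, chr12:85887001-85888000 and chr1:137915001-137916000, at 4.20% to 6.57% in WWD and 0.953% to 3.96% in WT.

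Single CpGs could nevertheless be highly methylated in WWD. Among 112862 positions with at least 50 reads in each pool, the highest WWD level was on the reverse strand of chromosome 1 at 120932080, with 80.5% in WWD (Wilson 95% interval 70.9 to 87.4), 93.1% in R, 0% in C, 75% in WT (65.9 to 82.3) and 0% in TKO. The next was on the reverse strand of chromosome 11 at 88624078, with 79.8% in WWD (74.3 to 84.3), 92.7% in R and 88.4% in WT (82.9 to 92.3). The others lay on chromosome 7 at 48845190, on chromosome 19 at 41775895 and on chromosome 5 at 147809850, with 77.5% to 79.6% in WWD and 83.9% to 86.9% in WT. These CpGs were picked for their WWD level, which the intervals do not allow for, so their values are a description only.

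The R construct gave a mean level within 0.5 points of wild-type Dnmt3a2 in the sparse tiles at all settings run that kept a depth ratio. By position the difference was 0.0186 points, within counting error of ±0.0312, and the levels had a Pearson correlation of 0.905 over positions (138415 positions, which share sequence and MspI sites). Over single positions the SD of the difference was 9.02 points, where counting of independent reads gives 5.92. PCR copies could not be recognised, so 5.92 is the lowest possible value for counting. R was called higher at 217 positions (0.157%) and lower at 183 (0.132%), against 0.235% higher and 0.0439% lower over all 1690346 positions tested, and 0.0689% higher and 0.0578% lower over autosomal positions within the same limits (Fisher's exact test, Benjamini-Hochberg adjusted over all positions tested). With the same positions weighted otherwise, the mean difference was 0.281 points with reads pooled and 0.381 with equal weight to blocks. Both depart from 0.0186 by more than ±0.0312, the counting error of the unweighted mean. Their own counting error was not computed. It was also larger on other sets of positions, at 0.315 points with the depth ratio taken to C, 0.301 with isolation over 50 tiles, 0.202 inside runs, 0.109 with a dense tile of 10 rows and 0.0611 with strands merged. Without the depth ratio R averaged 1.46 points more than WT.

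R minus WT varied with distance from the nearest dense tile. In classes of 11 to 20, 21 to 50, 51 to 100, over 100 to 200, over 200 to 500 and over 500 tiles, R minus WT was -0.484, -0.395, -0.252, 0.0117, 0.505 and 1.74 points. Counting error was at most ±0.0956 points in any class. R lay above WT over 500 tiles on 19 of 19 autosomes, with a mean of 1.74 ± 0.502 points, and on 2 of 19 at 21 to 50 tiles, with a mean of -0.385 ± 0.276 (SD over 19 chromosomes, which are not replicates of a condition). Over 500 tiles 20 of 12154 positions (0.165%) were called higher in R and 3 (0.0247%) lower. At 21 to 50 tiles 44 of 34483 (0.128%) were called higher and 55 (0.159%) lower. All compared positions had 0.157% higher and 0.132% lower, and autosomal positions within the same limits 0.0689% and 0.0578%. The share called higher was 0.187% at over 100 to 200 tiles, so it did not rise steadily with distance. Without the depth ratio R minus WT was 2.89 points over 500 tiles and 1.13 points at 21 to 50 tiles, so the sign near dense tiles depends on that limit. At 21 to 50 tiles the value was -0.192 with reads pooled and -0.150 inside runs. At 51 to 100 tiles it was 0.0978 inside runs and -0.452 at outermost positions. R minus WT was larger over 500 tiles than at 21 to 50 tiles in each of these settings in which both were computed.

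In all constructs the level itself was lower in the most isolated tiles. WWD averaged 6.90%, 7.08%, 6.98%, 6.38%, 5.43% and 3.78% in the 6 classes from near to far. R averaged 30.9%, 31.9%, 31.8%, 30.1%, 26.7% and 19.2%. WT averaged 31.4%, 32.3%, 32.0%, 30.1%, 26.1% and 17.5%. C stayed between 0.417% and 0.450%, and TKO between 0.245% and 0.266%. Over 500 tiles the level was below that at 21 to 50 tiles on 19 of 19 autosomes in each of WWD, R and WT, but on 8 of 19 in C and 6 of 19 in TKO. The WWD share of the gain was 21.3% in the nearest class and 20.4% in the furthest, with a lowest value of 20.03% at over 200 to 500 tiles.

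**Figure D5:**
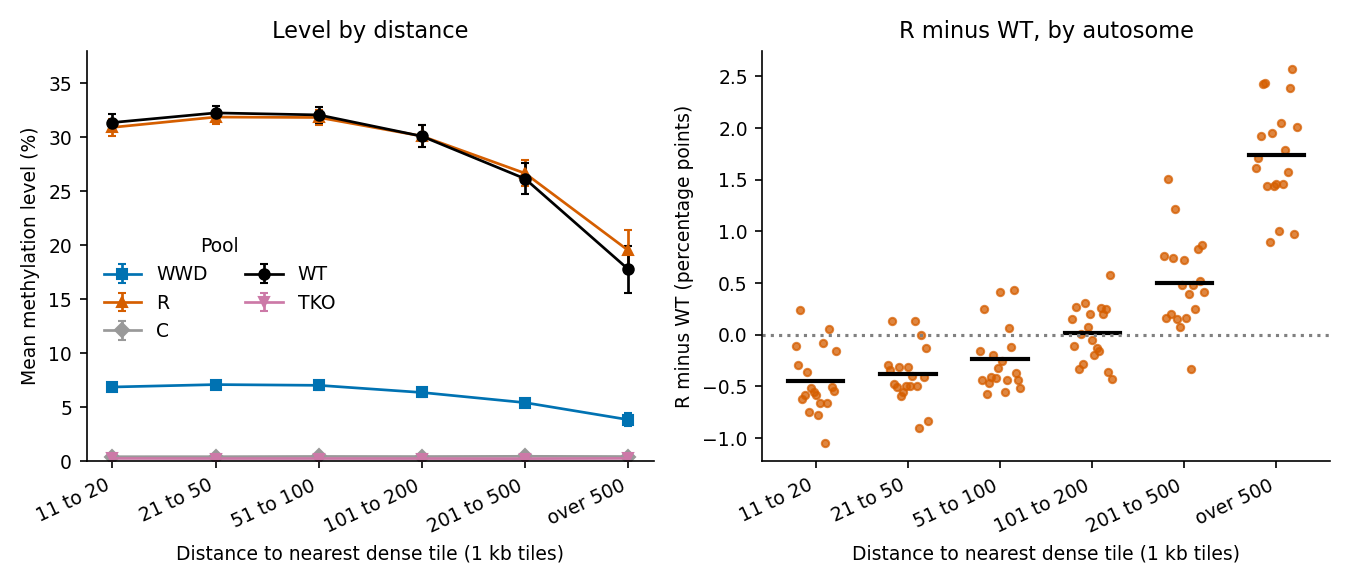
Left, mean level (%) in each pool and right, R minus WT (percentage points), by distance to the nearest dense tile (x axis, in 1 kb tiles). Left, points and bars are the mean and SD over 19 autosomes. Right, each point is 1 autosome and black lines are their means, which run from -0.448 in the nearest class to 1.74 in the furthest, where all 19 points lie above 0.

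Coverage and tile makeup also moved a little with distance. Median coverage at 21 to 50 tiles was 140 reads in WWD, 164 in R and 137 in WT, and over 500 tiles it was 123, 139 and 119. Outermost positions were 62.1% of those at 21 to 50 tiles and 64.7% of those over 500. The lower level was present within each place and each tile size. Over 500 tiles WT averaged 18.7% at inside and 16.8% at outermost positions, and at 21 to 50 tiles 32.7% and 32.0%. In tiles of 1 row WT averaged 15.0% over 500 tiles and 31.6% at 21 to 50, and in tiles of 4 rows 18.5% and 32.4%. R minus WT over 500 tiles was 1.71 to 1.79 points in tiles of 1, 2, 3 and 4 rows taken separately.

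Blocks were also ordered by WWD level, which itself was lower far from dense tiles, so this order is not separate from distance. The 2204 blocks were divided into 5 classes of equal size by their WWD level, which is on neither side of the comparison of R with WT. In the class with the least WWD methylation, 2.87% on average, R had 17.5% and WT 16.0%, and R was higher in 358 of 441 blocks. In the class with the most, 8.66%, R had 34.5% and WT 34.6%, and R was higher in 188 of 441. The class below it, at 6.99%, had the lowest R minus WT, -0.269 points, with R higher in 164 of 441. Over all blocks R minus WT averaged 0.381 ± 1.81 points (SD over blocks), with R higher in 1210 and lower in 994.

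The lowest WT blocks were far from dense tiles. At chr5:85000001-86000000, 28 positions averaged 0.794% in WWD, 6.34% in R and 4.56% in WT, and the median position lay 381.5 tiles from a dense tile. The blocks chr16:54000001-55000000 and chr16:80000001-81000000 had 9.60% and 9.34% in R, and 5.82% and 5.91% in WT. The highest WT block, at chr12:8000001-9000000, had 11.3% in WWD, 41.5% in R and 42.8% in WT over 85 positions. It was followed by chr7:141000001-142000000 and chr18:84000001-85000000, at 41.9% and 41.7% in WT.

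Single blocks differed between R and WT by several points, and those named here were chosen by their values. The largest positive block, at chr18:87000001-88000000, had 22.6% in R and 14.6% in WT over 22 positions. Blocks at chr9:4000001-5000000 and chr14:94000001-95000000 had R minus WT of 7.73 and 7.41 points. The largest negative one, at chr3:126000001-127000000, had 25.5% in R and 31.2% in WT over 26 positions. The blocks chr18:55000001-56000000 and chr14:37000001-38000000 followed, with -5.74 and -5.40 points. All of these blocks held 22 to 39 positions, where the median block held 53. Over single positions the SD of R minus WT was 9.02 points. The part of counting and site differences in these block values was not tested.

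Among single tiles the largest excess of R was at chr10:48011001-48012000, 1491 tiles from a dense tile, at 44.0% in R and 17.4% in WT. Of its 3 positions 1 was called. Adjusted p of the 3 positions lay between 2.07e-04 and 0.00184 (Fisher's exact test), so the others missed only the limit of 25 points. The others, with R minus WT of 23.8 to 24.9 points, were at chr2:169681001-169682000, chr18:47200001-47201000, chr7:75280001-75281000 and chr9:115512001-115513000, each with 1 called position. The largest deficit was at chr18:81780001-81781000, at 30.5% in R and 62.7% in WT, where 0 of 3 positions were called. Deficits of -23.8 to -26.7 points were at chr6:88539001-88540000, chr18:55649001-55650000 and chr18:66150001-66151000, and chr9:28280001-28281000. The tiles starting at 55649001 and at 28280001 had 1 called position each, and the other tiles 0.

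The C group had almost no methylation in the sparse tiles. At 71131 positions (51.4%) it was called lower than WT and at 0 higher, against 24.4% lower and 0.000904% higher over all 1658762 positions tested by the same Fisher's exact test. Before adjustment, 42 positions were higher in C at p under 0.05. C averaged 0.433% and TKO 0.251%, a difference of 0.181 points beyond counting error of ±0.00491. Counting error does not cover differences between libraries, and how completely bisulfite converted each library was not examined here. TKO itself averaged 0.342% at outermost and 0.0941% at inside positions, and C minus TKO was 0.169 and 0.202 points there. Whether the difference reflects methylation was not tested. C was higher than TKO in 1828 blocks and lower in 376. By position, 0 were called higher and 1 lower in C than in TKO, against 0% higher and 0.0014% lower over 1285564 positions tested and 0% and 0.000113% over autosomal positions within the same limits. At an unadjusted p under 0.05 there were 2807 higher and 302 lower. The direction of the mean difference turned without the depth ratio, where it was -0.261 points.

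Neighbouring CpGs in a sparse tile often had unlike levels, and the unlike levels recurred between pools. Among 41553 pairs of adjacent positions on the same strand of a tile, 2 to 50 bp apart, the median absolute difference within a pair was 4.69 points in WWD, 14.7 in R and 13.6 in WT. The SD of the difference was 22.4 points in WT, where counting alone gives 6.28. At 2 to 5 bp the median difference in WT was still 12.5 points over 3196 pairs. In 10761 pairs (25.9%) the WT levels were at least 25 points apart, and the same CpG was the higher one in R in 99.2% of these and in WWD in 94.0%. Over all pairs, the difference within a pair in WT correlated with that in R at a Pearson coefficient of 0.903 and with that in WWD at 0.717, among pairs, which share sequence and the place in the read.

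Most of the variation lay between single positions, each of which is 1 strand of a CpG. It therefore includes differences between the strands of the same CpG. Of the variance of WT levels over positions, 6.19% was shared by positions of the same 1 Mb block, a further 34.4% by positions of the same tile, 4.75% was counting error and 54.6% was left to single positions. In R the parts were 4.61%, 30.6%, 3.45% and 61.3%, and in WWD 2.23%, 19.2%, 6.16% and 72.4%. Positions of a tile can share reads, so the part of the tile includes counting error in common. Block levels resembled those of the next block, with a Pearson correlation of 0.303 in WWD, 0.430 in R and 0.486 in WT over 2040 pairs of adjacent blocks, and of 0.00282, 0.0498 and 0.0739 at 5 Mb over 1933 pairs. In TKO the correlation between adjacent blocks was -8.63e-05.

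Levels were lowest in tiles of 1 row, in WWD and in WT. Tiles of 1, 2, 3 and 4 rows averaged 4.80%, 5.65%, 6.89% and 7.12% in WWD, and 26.7%, 28.6%, 30.7% and 30.1% in WT. The WWD share of the gain was 16.9%, 18.9%, 21.9% and 23.1% in that order, while outermost positions made up 98.4%, 78.8%, 55.9% and 43.7% of the positions. Positions with no other covered CpG within 1000 bp, 6990 in number, had 3.96% in WWD, 23.1% in R and 22.6% in WT. All of them were outermost by definition, since gaps over 500 bp separate runs. Positions with another covered CpG at 2 to 10 bp had 7.84% in WWD, 30.8% in R and 30.6% in WT.

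Sparse tiles near dense ones served as the closest comparison. The isolated tiles averaged 29.5% in WT and the 30386 compared positions of sparse tiles within 10 tiles of a dense tile 26.6%. In the 496 blocks that held at least 20 positions of each kind, isolated tiles were higher in WWD in 330, in R in 395 and in WT in 391, and the mean difference within blocks was 0.804 ± 2.15 points in WWD, 5.04 ± 5.98 in R, 4.83 ± 6.07 in WT and 0.00102 ± 0.151 in TKO (SD over blocks). The lower level lay next to dense tiles. Sparse tiles directly beside one averaged 13.4% in WT and those 6 to 10 tiles away 30.8%. With 1 table per group these differences have no test across samples.

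Tiles with more rows were compared in the same way. Isolated tiles of 1 to 4 rows averaged 6.37% in WWD and 29.5% in WT, isolated tiles of 5 to 19 rows 7.21% in WWD and 27.2% in WT, and dense tiles 0.654% in WWD and 1.44% in WT. The WWD share of the gain was 20.9% in the isolated sparse tiles, 26.1% in the isolated tiles of 5 to 19 rows and 39.8% in dense tiles. C and TKO had 0.147% and 0.133% in dense tiles. Only 21.1% of the positions in isolated tiles of 5 to 19 rows were outermost, against 63.5% in the isolated sparse tiles, and the part of this in the shares was not tested.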

How the data were processed

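RRBS tables of 5 groups were used. Tools and build appear in the submitters' processing notes as Bismark, methylKit and mm9, and their versions and order are not given in the sources used here. Each row of the deposited tables is a CpG cytosine on 1 strand. Per the file headers it holds the coverage, which is a read count, and C as a percent of that count. A check found at least 10 reads in every row. Of 6 tables, the 1 that no sample's labels name was not used, and 8 columns of values were left out. Both numbered samples of a group name the same table, which was taken as their pool.

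The mitochondrial genome was left out. The number of methylated reads was taken as the rounded product of coverage and percent C, so a read with neither C nor T counted as unmethylated. The level of a class is the mean percent over its positions. Fisher's exact test ran on all nuclear positions with 10 or more reads in both pools, adjusted by Benjamini-Hochberg within each of 6 comparisons, and was checked on simulated reads. A call needed an adjusted p under 0.01 and 25 points. Counting intervals assume independent reads. Named tiles, blocks and positions were the extremes by a fixed rule, 5, 3 and 5 per list. The tiles, classes and lists were chosen with earlier results of these data known. Python 3.11.15, NumPy 2.4.6, pandas 2.3.3, SciPy 1.17.1, Numba 0.67.0 and Matplotlib 3.10.9 were used.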

Additional observations from a re-analysis of the deposited data

How the results depend on the processing

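Values below are in the order WT minus TKO, WWD minus WT, R minus WT, C minus TKO (points) and the WWD share of the WT gain (%). Only those are named that moved by more than the counting error of the value as reported. That error was not computed anew for each setting. WT minus TKO stayed positive and WWD minus WT negative in every setting. A coverage minimum of 20 gave 29.3 and -23.2, with the other 3 unmoved. Without the depth ratio they were 32.4, -20.3, 1.46, -0.261 and 37.2, with C minus TKO turned round, and R minus WT at 21 to 50 tiles was 1.13, against -0.395 with the ratio. A depth ratio taken to C gave 29.9, -22.9, 0.315, 0.135 and 23.6. Merged strands gave 29.4, -23.2 and 0.0611 for the first 3 and a share of 21.1%. Pooled reads gave 29.5, -23.3, 0.281, 0.186 and 20.9. Equal weight to blocks gave 26.9, -21.4 and 0.381, and a share of 20.7%. Isolation over 50 tiles gave 27.7, -21.95, 0.301, 0.190 and 20.6. Rows counted in R gave 29.2 and -23.1. A dense tile of 10 rows gave 28.8, -22.8 and 0.109, and a share of 20.8%. Leaving out chromosome 8 gave 29.2 and -23.1, and leaving out the highest coverages 29.3 and -23.1. Without outermost positions they were 29.9, -21.9, 0.202, 0.202 and 26.7. A narrower band of TKO coverage around that of WT, chosen after seeing the data, gave 29.01 and -23.03, and a share of 20.6%. The cause of these shifts was not tested.

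Called positions with a difference of 10 points were 93940 for WWD against WT, 1613 for R against WT and 23424 for WWD against TKO, where 25 points gave 59281, 400 and 6709. At 40 points they were 22353, 35 and 1769 in that order, 41524 for C against WT, 41739 for WT against TKO and 0 for C against TKO. An adjusted p under 0.05 gave 757 for R against WT. Without the depth ratio, which adds positions, R against WT had 1150, C against WT 107335, WWD against TKO 21355 and C against TKO 4. Merged strands gave 0 for C against TKO. The remaining counts stayed within 1.5 times those reported. No paired analysis was possible because both numbered samples of a group share 1 table, and leaving out a replicate could not be run for the same reason. Counting alone gives an SD of 4.48 points per position in WT.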

Other observations

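The low level of C increased with the level in R and that of TKO did not. At positions inside runs, C averaged 0.175% where R was at 0, 0.287% where R had over 20 to 40%, 0.426% at over 60 to 80% and 0.7502% above 80%. TKO averaged 0.126%, 0.100%, 0.0774% and 0.0497% in the same classes, over 2997, 13869, 5463 and 556 positions. The level in R is no part of the comparison of C with TKO, and no test across samples is possible with 1 table per group.

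Levels on the strands of a CpG were only weakly correlated across CpGs. At 3184 CpGs of the sparse tiles compared on both strands, the mean levels of the forward and the reverse strand were 7.24% and 6.88% in WWD, 30.2% and 30.2% in R and 30.1% and 29.9% in WT. Across these CpGs the levels of both strands had a Pearson correlation of 0.119 in WWD, 0.305 in R and 0.362 in WT, as a description. The strands are read in different reads. How many of these CpGs join an outermost and an inside row was not counted.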
